A study of Aedes aegypti with 5 samples.

Results

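AgBR1 (array symbol AEA-871BRE, described as bacteria responsive protein 1) and I23Ma (AEA-233) are 2 of the 433 gene probes on a nylon oligonucleotide array of the *Aedes aegypti* salivary gland. They were taken by their array symbols, with earlier results of these data known, and their intensities against unfed glands were part of the reason for choosing them. Their levels and ratios are therefore given as a description, with no test. RNA was pooled for 5 groups of female mosquitoes of the Higgs white eye strain, namely unfed mosquitoes and those dissected 1, 3, 24 or 48 hours after a blood meal (hours post feeding, hpf). The fed mosquitoes engorged on a BALB/c mouse as their first blood meal, and the unfed ones, matched in age, went through the starvation that preceded it without being fed. Each group is 1 RNA pool hybridized to 3 arrays, numbered 1 to 3, so that an SD over arrays is technical and holds no difference between mosquitoes.

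AgBR1 is named after a protein of *Anopheles gambiae* whose gene responds to bacteria, and it belongs with the chitinase-like proteins related to the imaginal disc growth factors of *Drosophila*. In *Ae. aegypti* it is secreted into the saliva, where it is known from mouse studies to provoke inflammation at the bite site. Saliva deposited during a blood meal has to be replaced by new synthesis, and antimicrobial and pattern-recognition proteins are regular products of the gland. For I23Ma the array gives no description beyond its name.

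On each array 121 to 162 of the 433 gene probes exceeded the mean of the 22 empty spots by more than 2 SD, which is called above the empty spots here, and 33 to 64 had a spot intensity of 60000 or more, called saturated. Of 8 salivary gland probes (apyrase, long D7 proteins, amylase, alpha-glucosidase and 30 kDa proteins) 7 were saturated on all 15 arrays. Of 6 probes picked by words for gut, fat body, muscle or haemocyte genes, a chymotrypsin-like and a trypsin-like enzyme carry salivary in their names. The myosin light chain exceeded the empty spots on 0 of 15 arrays, the prophenoloxidase activators on 4 and 8, and a large trypsin on 14 with group means of 0.187 to 0.463. Normalized intensity, as deposited, has the empty-spot mean removed from each spot and is relative to the average of actin (AE-314) and the ribosomal protein S5 (AE-198A), treated likewise. The study's methods name the ribosomal protein RpL5 as the reference, whereas the deposited values were recomputed from actin and S5, and all ratios depend on this choice. S5 was saturated on all arrays numbered 3 and on array 2 of unfed and of 3 hpf, 7 of 15 in all. In whole glands, fewer cells expressing a gene and less of its RNA per cell cannot be told apart.

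AgBR1 was above the empty spots on 15 of 15 arrays and saturated on 0, so that its spots are measured over the whole series. Its reference is not, since in every pair of a fed and an unfed array numbered 2 or 3 at least 1 S5 spot was saturated. Its normalized intensity in unfed glands was 0.385, 0.440 and 0.766 on arrays 1, 2 and 3. At 1 hpf it was 0.827, 1.01 and 1.27. All of these exceeded the 3 unfed values. At 3 hpf it was 0.587, 0.915 and 1.44, and array 1 lay below the highest unfed array. At 24 hpf AgBR1 gave 0.893, 1.03 and 1.51, again above all unfed values. At 48 hpf it was 0.501, 0.881 and 1.37, with array 1 inside the unfed range. In every group array 1 was the lowest and array 3 the highest, and among arrays of the same number the unfed one was always the lowest.

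The mean of AgBR1 was 0.530 ± 0.206 (SD, 3 arrays) in unfed glands. After feeding it was 1.04 ± 0.225, 0.980 ± 0.430, 1.15 ± 0.325 and 0.916 ± 0.433 at 1, 3, 24 and 48 hpf. From high to low the order was 24, 1, 3 and 48 hpf and then unfed. The steps between neighbouring fed groups were 0.109, 0.0571 and 0.0644, less than the SD of any of them, and their ranges overlapped. Within arrays of the same number 24 hpf was the highest in all 3 sets, 3 hpf exceeded 48 hpf on 3 of 3 arrays, and 1 hpf exceeded 3 hpf on 2 of 3. The step from 48 hpf to unfed was 0.386, and these ranges overlapped too. The ratio of group means to unfed was 1.96, 1.85, 2.16 and 1.73 at 1, 3, 24 and 48 hpf.

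I23Ma was above the empty spots on 15 of 15 arrays and saturated on 9 of them. In unfed glands its normalized intensity was 0.827, 1.07 and 1.19 on arrays 1, 2 and 3, the last one saturated. At 1 hpf it was 2.34, 2.13 and 1.76, with arrays 2 and 3 saturated. The 3 hpf values of 2.09, 1.95 and 1.79 were all saturated. At 3 hpf, as at 1 and 24 hpf, the order of the arrays was the reverse of that in unfed glands, array 3 being the lowest. At 24 hpf the values were 2.25, 2.08 and 1.93, with arrays 2 and 3 saturated. At 48 hpf I23Ma gave 1.23, 1.50 and 1.86, with array 3 saturated. All fed values exceeded all unfed values, and at 48 hpf arrays 1 and 2 lay below every array of the earlier fed times.

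Unfed glands had a mean I23Ma intensity of 1.03 ± 0.183 (SD, 3 arrays), and the fed groups had 2.08 ± 0.295, 1.94 ± 0.146, 2.09 ± 0.163 and 1.53 ± 0.311 in order of time. From 24 to 1 hpf the mean stepped down by 0.00965 and from 1 to 3 hpf by 0.137, both within the SDs and both among values that were mostly saturated. The 48 hpf mean lay 0.413 under that of 3 hpf, with overlapping ranges, and 0.501 above unfed. These last ranges did not overlap as normalized, with the highest unfed value a saturated spot whose true level is not known. The ratios to unfed were 2.02, 1.89, 2.03 and 1.49 at 1, 3, 24 and 48 hpf.

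**Figure D1:**
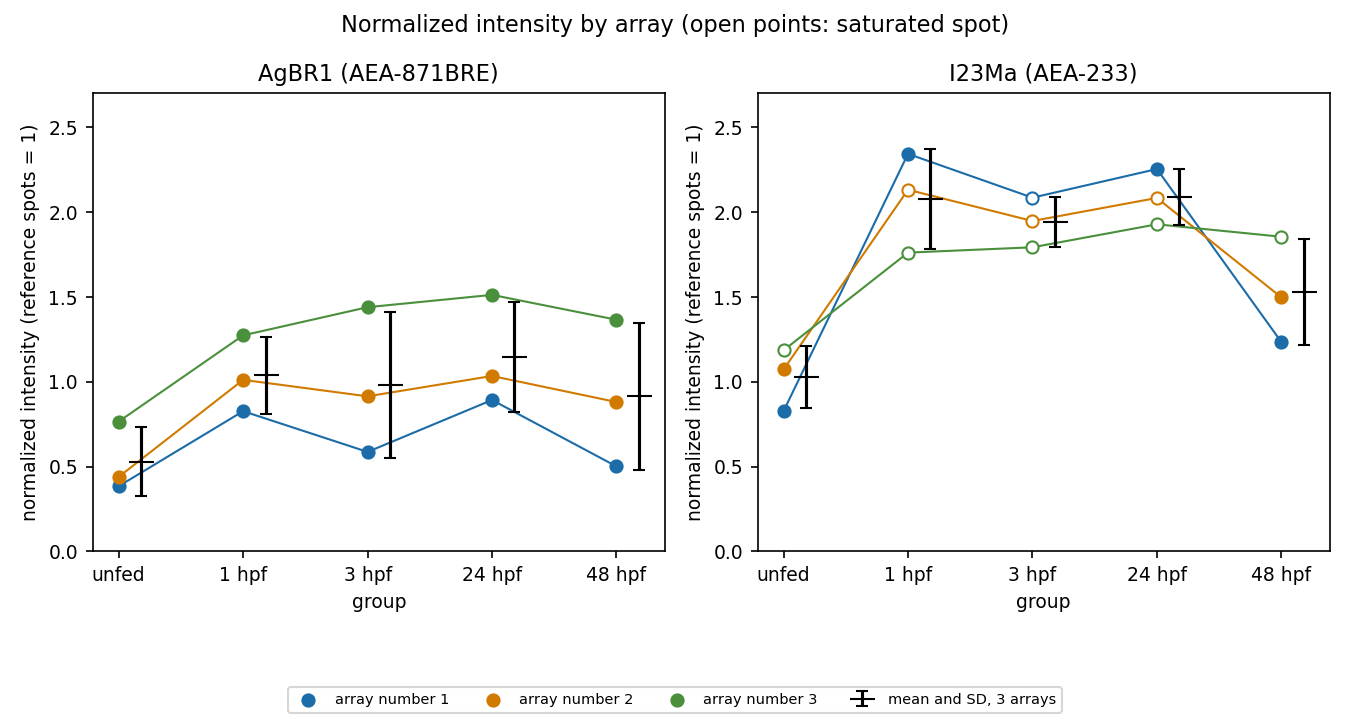
Normalized intensity (vertical axis, reference spots set to 1) of AgBR1 (left) and I23Ma (right) in the 5 groups. Points are single arrays joined by array number, open points are saturated spots, and bars give the mean and SD of 3 arrays. Unfed arrays are the lowest of their number in both panels, and 9 of the 15 I23Ma points are open.

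By the 2-fold limit of the study's methods, 1 of the 2 genes was up at 1 hpf (I23Ma), 0 at 3 hpf, 2 at 24 hpf and 0 at 48 hpf. Of all 433 probes 4.85%, 12.5%, 5.77% and 3.00% reached this limit at the same times. Since the genes were chosen on these contrasts, nothing is read from that count. The ratios lay so near the limit that single arrays decided it. AgBR1 at 24 hpf had a ratio of 1.90 without unfed array 1, 1.99 without unfed array 2 and 1.82 without array 3 of 24 hpf. I23Ma at 1 hpf had 1.84 without unfed array 1, 1.89 without array 1 of 1 hpf and 2.00 (just under the limit) without array 2. At 24 hpf I23Ma had 1.85 without unfed array 1 and 1.95 without array 1 of 24 hpf. Without unfed array 3, AgBR1 came to 2.52, 2.38 and 2.22 at 1, 3 and 48 hpf and I23Ma to 2.04 at 3 hpf. AgBR1 also passed 2-fold without array 1 of the fed group, at 2.16, 2.22 and 2.12 for 1, 3 and 48 hpf.

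The 3 fed arrays lay above all 3 unfed arrays for AgBR1 at 1 and 24 hpf and for I23Ma at all 4 times. Over all probes such a separation was found for 4.85%, 5.54%, 11.1% and 12.9% at 1, 3, 24 and 48 hpf. Comparing arrays of the same number, AgBR1 was higher on 3 of 3 fed arrays at every time. I23Ma was too, though in the pairs numbered 3 both spots were saturated, with unscaled ratios of 1.00 to 1.07, and at 3 hpf the fed spot and S5 of array 2 were saturated as well. The same held on 3 of 3 arrays for 134, 158, 78 and 72 of the 433 probes at 1, 3, 24 and 48 hpf, or 25.5% over the 4 times together.

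Intensity also varied with the array number. For AgBR1 the spot intensity of unfed glands was 15176 on array 1, 20650 on array 2 and 42074 on array 3, and at 24 hpf it was 23217, 32250 and 51420. The CV of the unfed spots was 54.7%, and that of the normalized values 38.9%. Relative to the unfed array of the same number, arrays 1, 2 and 3 of 1 hpf had 2.15, 2.30 and 1.66 times the normalized intensity. At 3 hpf they were 1.53, 2.08 and 1.88. The 24 hpf ratios were the closest together, at 2.32, 2.35 and 1.98. At 48 hpf AgBR1 gave 1.30, 2.00 and 1.78. Only the ratios of arrays 1 rest on an unsaturated S5 in both groups.

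For I23Ma the arrays numbered 3 were saturated in all 5 groups, with spot intensities of 60873 to 64815. Their ratios to unfed of 1.49, 1.51, 1.63 and 1.56 are no measured fold, since both spots were at the ceiling. Arrays 1 were unsaturated except at 3 hpf, and gave 2.83, 2.73 and 1.49 for 1, 24 and 48 hpf. At 3 hpf the fed spot of array 1 was saturated and the unfed one was not, so that I23Ma was at least 2.52-fold higher on that array. Arrays 2 gave at least 1.99-fold at 1 hpf and at least 1.94-fold at 24 hpf, with the fed spot saturated. At 3 hpf array 2 had a ratio of 1.82, which is no bound, since S5 was saturated there too. At 48 hpf both I23Ma spots of number 2 were unsaturated and the ratio was 1.40, with S5 saturated on the unfed array. With the arrays numbered 3 left out, a choice made after seeing the data, the ratios of I23Ma were 2.36, 2.12, 2.28 and 1.44 and those of AgBR1 2.23, 1.82, 2.34 and 1.68.

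**Figure D2:**
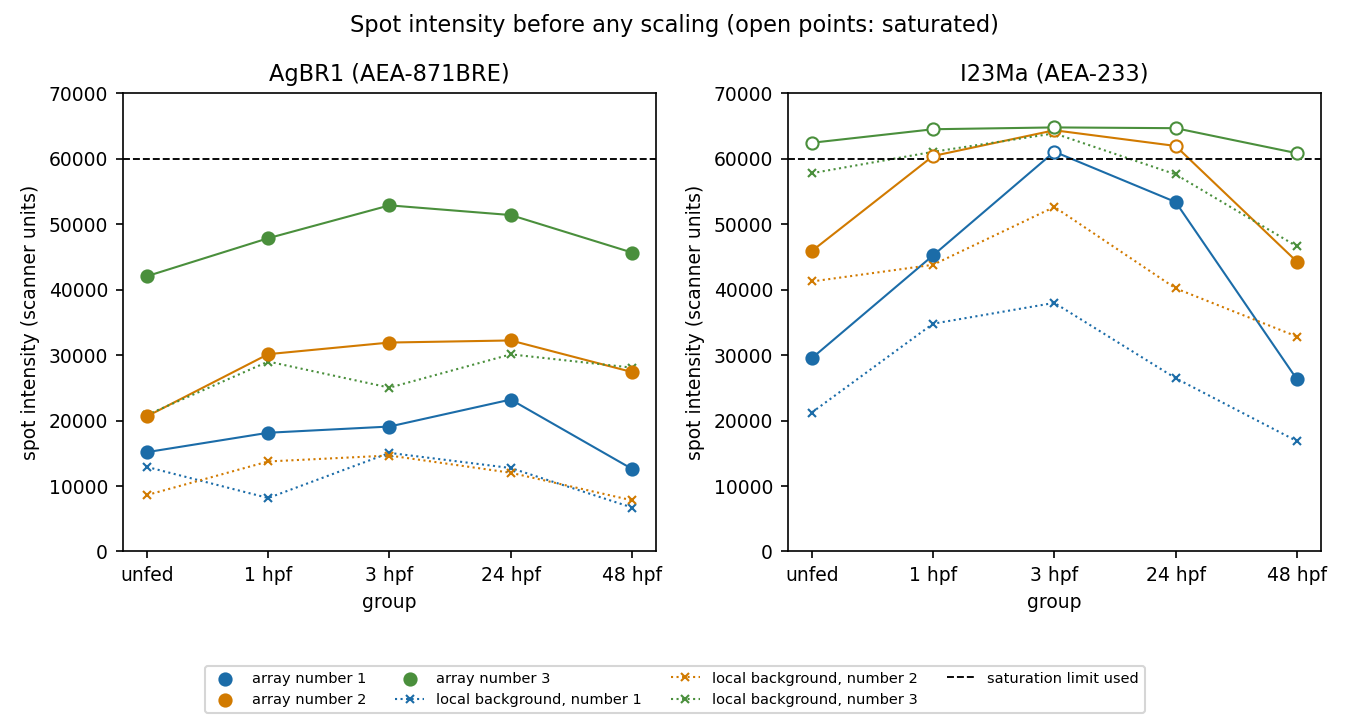
Spot intensity before any scaling (vertical axis, scanner units) of AgBR1 (left) and I23Ma (right) by group. Solid lines join arrays of one number, dotted lines with crosses give the local background of the same spot, the dashed line marks the saturation limit of 60000, and open points are saturated. At 48 hpf the I23Ma spots lie below the unfed spots on array numbers 1 and 2, and on number 3 both spots are saturated.

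The scaling of the arrays set part of these ratios. The share of actin in the reference was 14.1% to 38.9% on unfed arrays, 7.05% to 17.6% at 1 hpf, 3.21% to 10.7% at 3 hpf, and 1.56% to 7.63% later. Actin was above the empty spots on every unfed and every 1 hpf array. It was not above them on any array of 3 or 48 hpf, nor on arrays 1 and 2 of 24 hpf. From 3 hpf on the reference thus rested almost wholly on S5, whereas the unfed reference held a larger part of actin. The reference itself was 32452 to 48537 in unfed glands and 18678 to 31035 at 48 hpf, lower on each array number. The 30 probes with all 15 spots saturated, whose spot intensity at 48 hpf was 0.997 times the unfed one, had median normalized ratios of 1.60, 1.27, 1.47 and 1.60. AgBR1 lay above these values at all 4 times, and I23Ma above them at 1, 3 and 24 hpf and below at 48 hpf. Among the 97 probes above the empty spots on every array, the 31 never saturated, AgBR1 included, had median ratios of 1.23, 1.11, 0.771 and 0.850.

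With S5 alone as the reference, AgBR1 had ratios of 1.55, 1.39, 1.58 and 1.26 and I23Ma of 1.62, 1.44, 1.51 and 1.10. With the mean of 5 ribosomal protein probes AgBR1 had 1.45, 1.40, 1.58 and 1.28. Neither gene reached 2-fold at any time with these references or with each array divided by its median, and with quantile normalization only AgBR1 at 24 hpf did, at 2.14. Without any scaling, an alternative added after seeing the data, the ratios of AgBR1 were 1.27, 1.40, 1.45 and 1.13 and those of I23Ma 1.26, 1.42, 1.34 and 0.956. The unscaled I23Ma spots at 48 hpf were below the unfed ones on arrays 1 and 2, at 26312 against 29536 and 44293 against 45917. The I23Ma ratio of 1.49 at 48 hpf therefore turned its direction with the scaling. For AgBR1 at 48 hpf array 1 was below unfed as well, at 12610 against 15176, which without scaling is 0.750 times the unfed intensity, while arrays 2 and 3 had 1.37 and 1.14 times. S5 was saturated on none of the arrays numbered 1. On these, relative to S5 alone, AgBR1 had ratios of 1.99, 1.37, 2.03 and 1.14, and I23Ma of 2.62 at 1 hpf, at least 2.26 at 3 hpf, 2.38 at 24 hpf and 1.31 at 48 hpf.

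**Figure D3:**
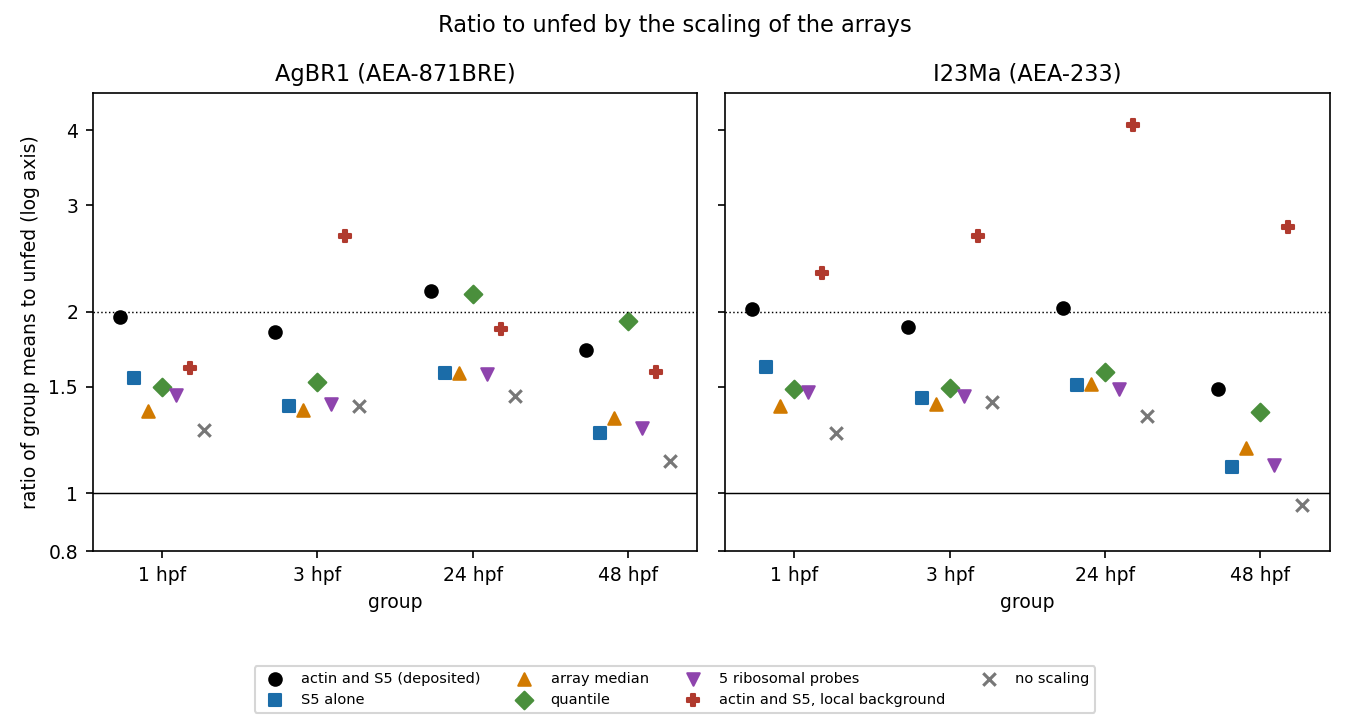
Ratio of the group mean to unfed (vertical axis, log scale) of AgBR1 (left) and I23Ma (right) at 4 times, with 1 symbol for each way of scaling the arrays. The solid line marks a ratio of 1 and the dotted line 2-fold. Black points, from the deposited values, lie above those of S5 alone, the array median, the ribosomal probes and no scaling at all times, and unscaled I23Ma at 48 hpf lies at 0.956.

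Light around the spots differed between the 2 genes. The local background of AgBR1 was 28.5% to 85.1% of its spot intensity and that of I23Ma 49.6% to 98.6%. Over the 97 probes above the empty spots on every array, the median share per array was 47.9% to 80.1%. With the local background subtracted, AgBR1 had ratios of 1.61, 2.67, 1.87 and 1.59 and I23Ma of 2.31, 2.67, 4.07 and 2.76. The part of neighbouring spots in this background was not tested.

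The genes whose ratios were most like those of AgBR1, by the root mean square difference of the log2 ratio over the 4 times among 96 probes above the empty spots on every array, were I23Ma (0.12), the putative serine protease AF466600 (0.31), the putative secreted protein AF466586 (0.38), the putative salivary C type lectin AE-189 (0.39) and a second putative secreted protein, AY536268 (0.41). For I23Ma they were AgBR1 (0.12), AF466600 (0.22), AF466586 (0.31), AE-189 (0.36) and the D7s3 allele AE-182 (0.38). C type lectins bind sugars, and D7 proteins are salivary carriers related to odorant binding proteins. Each gene led the list of the other, by ratios that were used to choose both and that for I23Ma include 9 saturated spots, so that this is a description only. Their log2 normalized intensities correlated with r = 0.68 over the 15 arrays, and with 0.92, 0.94 and 0.99 over the 5 arrays numbered 1, 2 and 3. These values share the reference spots and the ceiling. On the arrays numbered 3 every I23Ma spot was saturated, so that the r of 0.99 holds no measured level of I23Ma. AF466600, AF466586, AE-189 and AY536268 were saturated on 11, 3, 11 and 15 arrays. Over the 15 arrays AF466600 had r = 0.91 with I23Ma and 0.44 with AgBR1. With AgBR1, AF466586, AE-189 and AY536268 had r = 0.66, 0.19 and -0.07. With I23Ma, AF466586, AE-189 and AE-182 had r = 0.65, 0.72 and 0.31.

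The array holds 1 further chitinase-like probe, the imaginal disk growth factor protein 4 (AY736004). It was above the empty spots on 0 of 15 arrays, with mean normalized intensities of -0.00108 to 0.035.

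A list of 21 other probes with descriptions of antimicrobial, recognition and related proteins was set beside the pair. Of these, 4, 3, 2 and 2 had a ratio of at least 2 at 1, 3, 24 and 48 hpf, against 4.85%, 12.5%, 5.77% and 3.00% of all probes. Of the 21, 14, 14, 14 and 15 were detected, that is, exceeded the empty spots on 2 or 3 arrays of one of the groups. A ratio of at most 0.5 was found for 0, 0, 3 and 2 (9.24%, 8.55%, 16.9% and 21.7% of all probes), none of them detected. The median ratio of the list was 1.60, 1.27, 1.19 and 1.48, and that of all probes with a ratio 1.20, 1.27, 0.935 and 0.727. At each time 5 of the 21 were saturated in both groups. The list medians at 1 and 3 hpf fell on such probes, where no fold is measured. They lay at the 1.60 and 1.27 of the 30 probes with all 15 spots saturated. In a limma fit over all 15 arrays, adjusted over 432 probes, 2, 1, 2 and 0 of the 21 were higher and 0 were lower at each time. For all limma counts here values were first raised to a floor of 0.242. The list probes with a ratio of at most 0.5 lay under it in both groups and could not be called lower (log2 difference 0). Over all probes 0.926%, 0.694%, 0.926% and 0.231% were higher by the same adjusted fit. At an unadjusted p under 0.05 the counts of the list were 10, 4, 4 and 7 higher and 0 lower. Of all 432 probes, 63, 16, 19 and 46 were higher and 3, 5, 8 and 7 lower at this unadjusted limit. With the array number as a block 9, 9, 9 and 6 of the 21 were higher (14.1%, 12.5%, 11.8% and 9.95% of all probes) and 0 were lower (0.926%, 1.85%, 2.31% and 3.70% of all probes). Of these 33 tests 20 were of probes saturated on every array of both groups, where no fold is measured. Without array 3 of 48 hpf, 8 in place of 5 tests of the list passed as higher.

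All p-values given here compare technical arrays of 1 RNA pool per group and hold no difference between mosquitoes. The 5 tests that passed belonged to defensin A1 (S82860), an antimicrobial peptide, and the angiopoietin-like protein (AE-6349). Both exceeded the empty spots on 1 of 3 unfed arrays, so that their ratios rest on a dim unfed level, and the floored log2 differences behind the tests are smaller. Defensin A1 had a ratio of 12.5 and a log2 difference of 2.81 at 1 hpf, where 1 of 3 spots was saturated (limma, adjusted p = 0.00100). At 3 hpf its log2 difference was 3.02 (limma, adjusted p = 0.000494), with all 3 spots saturated and S5 saturated on arrays 2 and 3, so that no bound is given. At 24 hpf the ratio of defensin A1 was 8.30 and the log2 difference 2.16 (limma, adjusted p = 0.00427). At 48 hpf the ratio was 3.63 and did not pass (limma, adjusted p = 0.315).

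The angiopoietin-like protein had ratios of 12.98 and 14.5 and log2 differences of 2.34 and 2.50 at 1 and 24 hpf (limma, adjusted p = 0.00759 and 0.00427). Its ratio of 7.07 at 3 hpf passed only with the block (limma, adjusted p = 0.225, and 0.00902 with the block), and that of 4.25 at 48 hpf did not pass in either fit (limma, adjusted p = 0.719 without the block). The peptidoglycan recognition protein (AE-7210), which binds bacterial cell walls, was above the empty spots on all unfed arrays and had a ratio of 2.27 at 1 hpf (limma, adjusted p = 0.25, and 0.000919 with the block). Its ratios at 3, 24 and 48 hpf were 0.821, 0.514 and 0.948. An antigen 5 family member (AF466601), of a family common in insect saliva, had a mean normalized intensity of 0.189 at 1 hpf and 0.0726 in unfed glands, where it exceeded the empty spots on 0 of 3 arrays. A possible antimicrobial peptide with an HHH motif (AET-462), above the empty spots on 1 of 3 unfed arrays, had a mean of 0.273 at 3 hpf and 0.0973 in unfed glands. Neither of these passed (limma, adjusted p = 1 for both). The floor lay above the unfed means of both and above the 1 hpf mean of AF466601. It left log2 differences of 0.0374 for AF466601 at 1 hpf and 0.344 for AET-462 at 3 hpf. For these 2 probes the fit therefore could not decide whether the level was higher.

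**Figure D4:**
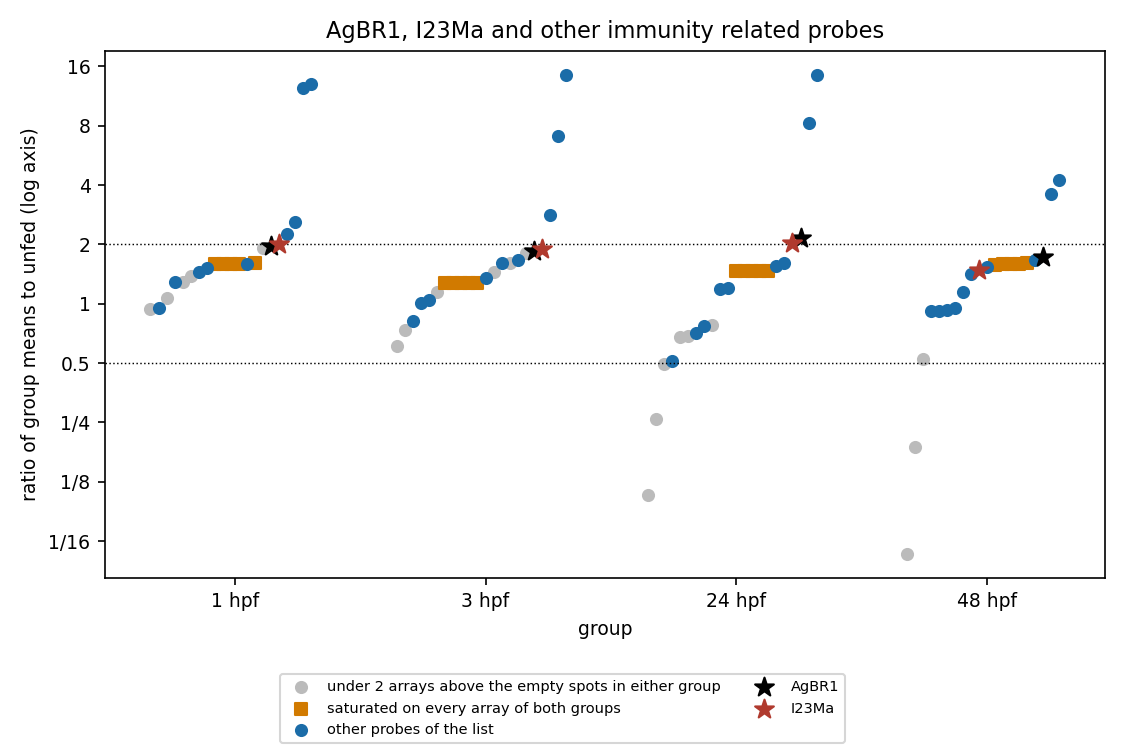
Ratio of the group mean to unfed (vertical axis, log scale) for AgBR1 and I23Ma (stars) and the other probes of the immunity list with a ratio, sorted by ratio at each time. Grey points were not detected, orange squares were saturated in both groups, and dotted lines mark 0.5-fold and 2-fold. The highest 2 points at each time are defensin A1 and the angiopoietin-like protein, both above the empty spots on 1 of 3 unfed arrays.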

How the data were processed

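Biotin-labelled cRNA of 5 salivary gland RNA pools was hybridized to 15 nylon arrays. The authors quantified the spots with GEArray Expression Analysis Suite. They deposited spot and local background intensities and normalized intensities, which were recomputed from the raw values within 0.000129. The score values of the deposited series matrix are group means divided by that of unfed, and can fall below 0. The authors' lists of ratios and p-values were not used. The lists, the 2 genes and the tests were chosen with earlier results of these data known.

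Probes spotted more than once were averaged. Ratios are those of group means. The immunity list was drawn from the array's descriptions by keyword. For tests, values were raised to a floor of 0.242 (the largest, over arrays, of 2 SD of the empty spots), and their log2 was fitted with 1 mean per group (limma 3.58.1, R 4.3.3), with Benjamini-Hochberg adjustment over 432 probes (S5 left out). The fit had first been run on simulated data with independent noise and changes in bright probes only. That simulation held no saturation and no shared effect of array number, so that it does not cover these features of the data. A test compares 1 RNA pool with another over technical arrays, and the number of arrays limits its precision. Its p-value holds no difference between mosquitoes and cannot tell an effect of feeding from a difference between pools. Arrays of the same number deviated together (r = 0.175 to 0.836 for 30 pairs over 169 probes), so that a fit with the number as a block was run as well. The sources used here do not say what the number marks. Named genes are the pair, the 5 nearest probes by ratio and the list members past 2-fold or 0.5-fold and detected. Of the 433 array identifiers 0 were found in the RefSeq table, so that positions in the genome and sequences were not used here.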

Additional observations from a re-analysis of the deposited data

How the results depend on the processing

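The ratios of I23Ma at 1, 3 and 24 hpf moved by more than their SD over arrays to 1.39, 1.40 and 1.52 with each array divided by its median, to 1.49, 1.49 and 1.59 with quantile normalization, to 1.47, 1.45 and 1.49 with ribosomal probes and to 1.26, 1.42 and 1.34 without scaling, and at 3 and 24 hpf to 1.44 and 1.51 with S5 alone. With the local background subtracted I23Ma moved to 2.67, 4.07 and 2.76 at 3, 24 and 48 hpf, and on arrays 1 alone with S5 to 2.62 and 2.26 at 1 and 3 hpf. Its ratio at 48 hpf turned to 0.956 without scaling. The ratio of group means of AgBR1 kept its direction and stayed within 1 SD (0.871 to 1.08) under every alternative. This SD is wide and takes the arrays as unpaired. Ratios between arrays of the same number lay closer together, at 1.66 to 2.30, 1.53 to 2.08, 1.98 to 2.35 and 1.30 to 2.00 in order of time. With S5 alone the ratios of 1.55, 1.39, 1.58 and 1.26 fell below these ranges. Without scaling, array 1 of 48 hpf had 0.750 times the unfed AgBR1 intensity. The cause was not tested. Leaving out 1 array gave AgBR1 ratios of 1.72 to 2.52, 1.42 to 2.38, 1.82 to 2.78 and 1.30 to 2.22 at 1, 3, 24 and 48 hpf, and I23Ma 1.84 to 2.19, 1.72 to 2.04, 1.85 to 2.20 and 1.33 to 1.63.

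Over the 4 times together 5 tests of the immunity list were higher by limma and 0 lower. Probes under the floor in both groups could not be called lower in this fit. Higher were 33 with the replicate block, 12 with quantile normalization (and 1 lower), 2 with ribosomal probes, 0 with the local background subtracted, 8 with normexp, 11 by a t-test of each probe unadjusted (and 1 lower) and 3 after Benjamini-Hochberg. Without 1 array 5 to 8 were higher (8 without array 3 of 48 hpf) and 0 lower, 10 to 15 in place of 11 ratios were at least 2, and 3 to 8 in place of 5 at most 0.5 (3 without unfed array 1, 8 without unfed array 2 or array 1 of 48 hpf). The replicate block was not applied to AgBR1 or I23Ma, which were not tested. Saturation of its own spots limits I23Ma, and array number limits AgBR1. The choice of reference and the saturation of S5 limit both.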
